A study of Mus musculus with 12 samples.

Results

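The 28 genes described here carry out or govern cholesterol handling in mouse cells, and were taken from the 22899 genes of the deposited expression table by symbol. They comprise 8 genes of the mevalonate steps, 11 genes of the sterol steps, 4 genes that sense sterols, 2 genes of sterol transport and receptor turnover, and 3 genes of sterol export. The genes were listed by function, with earlier results of these data known, and the list does not hold every gene of the pathway. All 28 had a value in all 12 libraries and all 28 were at 1 FPKM (a level scaled for transcript length and for the size of the library) or more in at least 3 libraries, the level required for testing, which 10764 genes reached. Of the 28, 27 were at 1 FPKM or more in every library, the exception being Idi1 with 0.76 FPKM in control library 3.

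RNA was sequenced from 12 Kunming mice, recorded as female and aged 6 to 8 weeks, with 3 mice in each of 4 groups. The colistin + 7-HC group received both compounds at the doses of the single groups, the colistin group received colistin at 15 mg/kg/day, the 7-HC group received 7-hydroxycoumarin at 50 mg/kg/day, and the control group received saline, each for 7 days. Colistin is a polymyxin antibiotic used against Gram-negative bacteria whose use is limited by injury to the kidney, and 7-hydroxycoumarin (7-HC) is a plant phenol also called umbelliferone. The study asked whether 7-HC lessens that injury. As the methods describe, 7-HC was given in DMSO, so groups with and without 7-HC also differed in the vehicle, and effects of the compound and of its vehicle cannot be told apart.

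The libraries are labelled kidney, but genes that define liver were abundant in them and genes that define the nephron were near 0. The 10 liver markers summed to between 54340 and 65120 FPKM in the colistin + 7-HC libraries, 49220 to 52860 in the colistin libraries, 105400 to 116100 in the 7-HC libraries and 90390 to 101800 in the control libraries. Of 11 nephron markers, 7 had values, of which the highest in any library was 0.21 FPKM, and Slc5a2, Kap, Slc12a1 and Aqp2 were blank. Although the mice are recorded as female, 4 genes of the Y chromosome (Uty, Kdm5d, Ddx3y and Eif2s3y) were at 1.23 FPKM or more in all 12 libraries. The members' values are therefore described by treatment and not as those of kidney. Library sums ran from 517984 to 597354 FPKM and 10036 to 10392 genes were at 1 FPKM or more. Correlations between libraries over the tested genes, on the log2 scale, were 0.956 to 0.984 within groups and 0.872 to 0.98 between groups. Every library came from a separate mouse, so the p-values measure the spread between mice of 1 experiment.

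Cholesterol is built from acetyl-CoA, first through mevalonate to farnesyl diphosphate, then through squalene and lanosterol to cholesterol itself. When membranes of the endoplasmic reticulum are rich in sterol, the Insig proteins hold the Scap escort and the transcription factor encoded by Srebf2 there. When sterol is scarce, Scap carries the factor to the Golgi, where it is cleaved, and its released part binds sterol regulatory elements in the promoters of synthesis genes, commonly together with the factor NF-Y at CCAAT boxes. Surplus sterol yields oxysterols that activate liver X receptors, which raise export genes such as Abca1, Abcg5 and Abcg8. Hepatocytes are a main site of this synthesis and secrete sterol into bile and lipoproteins.

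Promoter sequences are shown for 4 members. With colistin, 14 of the 19 synthesis genes were higher, against 12.7% of all tested genes. Abcg5 and Abcg8 were both lower, against 19.9% of all tested genes. RefSeq promoter windows on GRCm38.p6, running from 250 bases before to 50 bases after the annotated start, were found for 24 of the 28 members; Fdps, Fdft1, Sqle and Stard4 had none in the table used. Both strands were searched for the sterol element TCACNCCAC, for CACNCCAC, which is the same element without its first base so that each longer match also counts as a shorter one, and for CCAAT. TCACNCCAC was found in 1 of 24 members (4.17%), against 1.44% of 27025 genes with a window and 1.56% of the 8658 of them that were tested for expression. CACNCCAC was found in 3 of 24 members (12.5%), against 7.12% of all genes and 7.63% of the tested ones. CCAAT was found in 21 of 24 members (87.5%), against 41.1% of all genes and 43.2% of the tested ones, the 3 without it being Acat2, Scap and Abca1. These matches describe letters in a window and show no binding. The first 3 sequences are those that hold CACNCCAC, which stands in capitals, read 5′ to 3′ on the strand of the gene. The fourth, chosen after the values were seen, is that of Abcg8, with its CCAAT boxes in capitals.
Acat2, chr17:12960676-12960975, minus strand: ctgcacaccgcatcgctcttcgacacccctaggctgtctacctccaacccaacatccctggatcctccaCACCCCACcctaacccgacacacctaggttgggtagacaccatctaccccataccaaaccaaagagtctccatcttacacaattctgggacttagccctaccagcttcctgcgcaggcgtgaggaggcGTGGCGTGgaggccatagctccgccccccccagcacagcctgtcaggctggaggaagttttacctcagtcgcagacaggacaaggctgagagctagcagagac
Hmgcs1, chr13:119690101-119690400, plus strand: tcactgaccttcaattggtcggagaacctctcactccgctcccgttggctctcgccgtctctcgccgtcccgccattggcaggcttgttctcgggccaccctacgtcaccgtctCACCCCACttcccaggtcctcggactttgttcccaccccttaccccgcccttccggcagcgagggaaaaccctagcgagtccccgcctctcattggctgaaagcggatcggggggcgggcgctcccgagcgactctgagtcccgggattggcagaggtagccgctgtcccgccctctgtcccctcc
Insig1, chr5:28071162-28071461, plus strand: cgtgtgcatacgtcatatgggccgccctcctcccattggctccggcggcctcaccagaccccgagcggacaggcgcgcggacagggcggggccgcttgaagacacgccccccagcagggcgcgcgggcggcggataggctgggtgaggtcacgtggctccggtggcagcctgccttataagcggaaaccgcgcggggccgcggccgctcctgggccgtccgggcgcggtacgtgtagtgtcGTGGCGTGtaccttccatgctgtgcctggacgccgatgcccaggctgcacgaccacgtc
Abcg8, chr17:84682871-84683170, plus strand: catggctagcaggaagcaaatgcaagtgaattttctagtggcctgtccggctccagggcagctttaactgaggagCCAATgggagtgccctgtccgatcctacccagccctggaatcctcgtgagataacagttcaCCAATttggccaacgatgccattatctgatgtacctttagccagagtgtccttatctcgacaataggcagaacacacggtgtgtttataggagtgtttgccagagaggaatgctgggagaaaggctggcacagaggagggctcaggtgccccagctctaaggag

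In the Hmgcs1 promoter the capitals lie 129 to 136 bases before the start and are preceded by a T, which completes TCACNCCAC. The Acat2 promoter holds a match at 174 to 181 bases and another, on the opposite strand, at 46 to 53 bases before the start. The match of Insig1 lies 2 to 9 bases before its start, on the opposite strand. Abcg8 has 2 annotated starts. From the one shown, Abcg5 and Abcg8 lie head to head with starts 110 bases apart, and their windows share 209 bases, so the Abcg8 sequence is largely also the promoter of Abcg5. The other start lies within the Abcg5 gene, and its window holds none of the motifs searched. Of the 3 members with a CACNCCAC match, Hmgcs1 was higher with colistin, whereas neither Acat2 nor Insig1 passed that test.

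Colistin against control asks what the antibiotic alone did. Transcripts of most enzymes of cholesterol synthesis were higher in the colistin group, by up to 8.19 times in the ratio of means (Sqle). Of the 28 members, 16 were higher and 3 were lower at an adjusted p under 0.05 in limma, against 12.7% higher and 19.9% lower among all genes tested. After scaling by median ratios the split was 1725 higher and 1834 lower over all genes, against 1369 and 2146 without it, and still 16 and 3 among the members. The 16 were 6 of 8 mevalonate genes, 8 of 11 sterol genes, Srebf2 and Abca1, and the 3 were Scap, Abcg5 and Abcg8. The median log2 fold change was 1.56 over the 19 synthesis genes and 0.81 over the 28 members, against -0.07 over all tested genes. Fold changes are differences on the log2(FPKM + 0.5) scale, each given ± the standard error of the fit, and values of a group are listed in the order of libraries 1, 2 and 3.

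**Figure D1:**
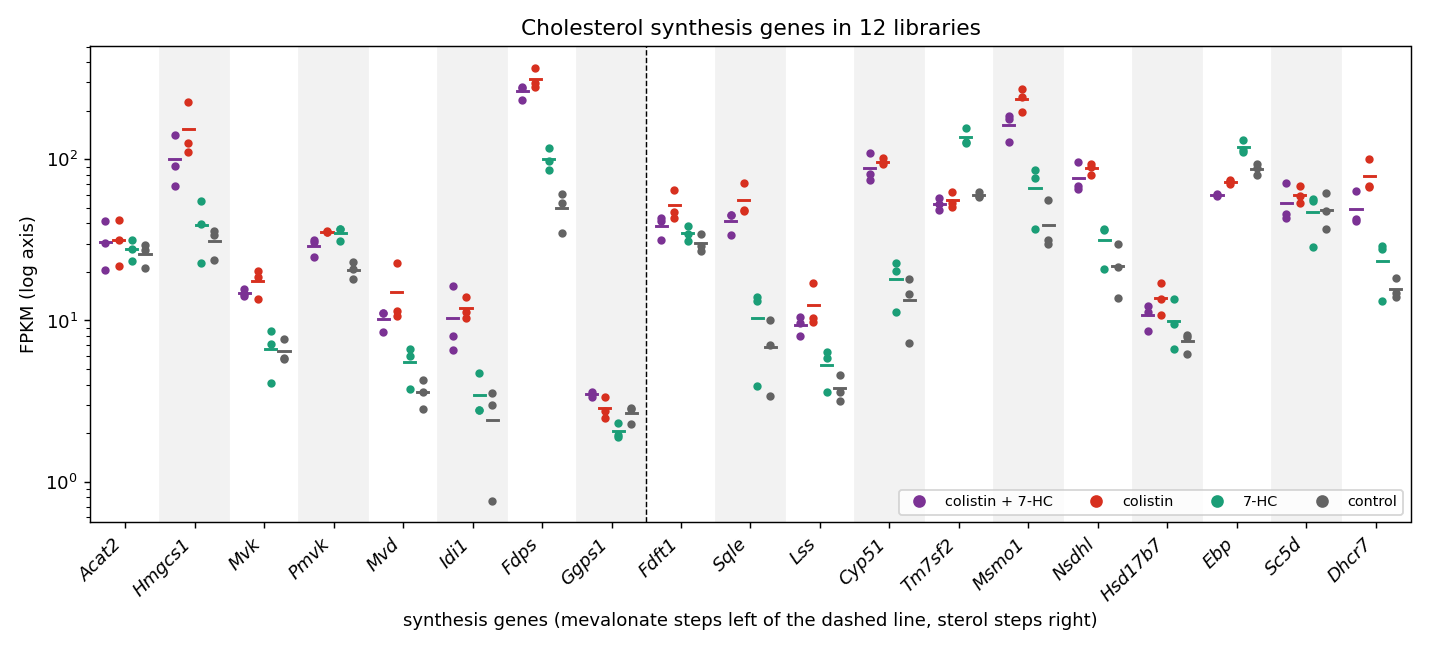
FPKM on a log axis of the 19 synthesis genes in each library, with points for single libraries and a bar at the group mean. For 14 of the 19 genes, all 3 colistin libraries lie above all 3 control libraries, as they do for 2021 of all 10764 tested genes. Fdps lies at 281 to 371 FPKM in the colistin libraries and 35.0 to 60.9 FPKM in the control libraries.

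Of the 8 mevalonate genes, 6 rose. Hmgcs1, the synthase that forms HMG-CoA, had 225, 110.3 and 126 FPKM in the colistin libraries, against 35.7, 33.7 and 23.6 FPKM in the control libraries (log2 fold change 2.24 ± 0.37, adjusted p = 0.000884). Library 1 of the colistin group stood highest, and every colistin library was above every control library. Mvk, mevalonate kinase, had 20.2, 18.6 and 13.6 FPKM with colistin and 7.68, 5.88 and 5.79 FPKM in control (log2 fold change 1.36 ± 0.23, adjusted p = 0.00112). Mvd, the decarboxylase that makes isopentenyl diphosphate, had 22.7, 10.6 and 11.4 FPKM with colistin and 4.29, 2.84 and 3.61 FPKM in control (log2 fold change 1.85 ± 0.28, adjusted p = 0.000566). Neither gene had a colistin library within the range of the control libraries. Idi1, the isomerase that supplies the second isoprene unit, had 13.97, 10.4 and 11.2 FPKM with colistin and 3.53, 2.99 and 0.76 FPKM in control (log2 fold change 2.24 ± 0.42, adjusted p = 0.00219). Fdps, which joins isoprene units into farnesyl diphosphate, had 371, 296 and 281 FPKM with colistin and 60.9, 53.2 and 34.98 FPKM in control (log2 fold change 2.68 ± 0.20, adjusted p = 6.3e-06). Fdps had the smallest adjusted p of the 28 members in this comparison. Pmvk, phosphomevalonate kinase, had 36.1, 35.5 and 35.1 FPKM in the colistin libraries, which lay within 1 FPKM of each other, against 22.9, 18.1 and 20.7 FPKM in control (log2 fold change 0.78 ± 0.13, adjusted p = 0.000935).

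The first and the last gene of this segment did not pass the test. Acat2, the cytosolic thiolase that condenses acetyl-CoA, had 41.9, 21.9 and 31.5 FPKM with colistin and 29.3, 27.5 and 21.3 FPKM in control, and the groups overlapped (log2 fold change 0.25, 95% interval -0.34 to 0.84). Ggps1, which lengthens farnesyl diphosphate for protein prenylation and so leads away from sterols, had 2.76, 3.33 and 2.49 FPKM with colistin and 2.27, 2.85 and 2.82 FPKM in control (log2 fold change 0.09, 95% interval -0.19 to 0.37). The interval of Ggps1 leaves out a change as large as that of any of the 6 mevalonate genes that rose. Exons of Fdps share 26.7% of their bases with Gm43738 on the same strand. Those of Hmgcs1 share 12.1% with Gm48342 on the opposite strand. How reads were divided between such genes is not given in the sources used here.

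Of the 11 sterol genes, 8 rose. Fdft1, squalene synthase, which commits farnesyl diphosphate to sterols, had 64.7, 43.4 and 46.97 FPKM with colistin and 28.8, 27.2 and 34.2 FPKM in control (log2 fold change 0.76 ± 0.18, adjusted p = 0.00685). Sqle, squalene epoxidase, a rate-limiting enzyme of the pathway, had 71.3, 47.5 and 48.8 FPKM with colistin and 10.01, 7.07 and 3.38 FPKM in control (log2 fold change 3.03 ± 0.44, adjusted p = 0.000459). Sqle had the largest fold change of the 28 members, although its control libraries themselves spread from 3.38 to 10.01 FPKM. Lss, which cyclises the epoxide to lanosterol, had 16.96, 9.83 and 10.4 FPKM with colistin and 4.57, 3.60 and 3.18 FPKM in control (log2 fold change 1.56 ± 0.24, adjusted p = 0.000573). Cyp51, the lanosterol demethylase, had 101, 95.8 and 93.2 FPKM with colistin and 18.2, 14.6 and 7.29 FPKM in control (log2 fold change 2.90 ± 0.32, adjusted p = 6.84e-05). The colistin libraries of Cyp51 were close to each other (96.8 ± 4.21 FPKM, SD, n = 3). Exons of Fdft1 share 18.3% of their bases with Ctsb on the opposite strand, and Ctsb had 244, 396 and 296 FPKM with colistin and 404, 413 and 394 FPKM in control (log2 fold change -0.40, limma adjusted p = 0.114).

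Of the enzymes that strip methyl groups from the sterol ring, Msmo1, the methylsterol monooxygenase, had 273, 242 and 197 FPKM with colistin and 55.8, 29.7 and 31.4 FPKM in control (log2 fold change 2.64 ± 0.32, adjusted p = 0.000147). Nsdhl, the dehydrogenase that acts after Msmo1, had 93.7, 90.03 and 79.96 FPKM with colistin and 30.00, 21.3 and 13.8 FPKM in control (log2 fold change 2.06 ± 0.28, adjusted p = 0.000303). Hsd17b7, the ketoreductase of the same complex of reactions, had 17.1, 10.8 and 13.5 FPKM with colistin and 7.94, 6.16 and 8.18 FPKM in control (log2 fold change 0.84 ± 0.24, adjusted p = 0.0216). The call of Hsd17b7 was lost without control library 2 (log2 fold change 0.72, adjusted p = 0.0785), without colistin library 1 (0.68, 0.0876) or without colistin library 3 (0.84, 0.0526). Dhcr7, the reductase that completes cholesterol, had 100.02, 67.02 and 68.2 FPKM with colistin and 18.4, 14.9 and 13.9 FPKM in control (log2 fold change 2.27 ± 0.29, adjusted p = 0.000185).

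The other 3 sterol genes gave no call. Tm7sf2, a sterol reductase whose reaction follows Cyp51, had 63.01, 53.4 and 50.6 FPKM with colistin and 63.03, 59.2 and 58.4 FPKM in control (log2 fold change -0.12, 95% interval -0.39 to 0.16). Ebp, the sterol isomerase, had 74.7, 70.2 and 73.5 FPKM with colistin and 93.1, 80.3 and 87.9 FPKM in control, with all 3 colistin libraries below all 3 control libraries (log2 fold change -0.26 ± 0.11, adjusted p = 0.0852). Leaving out 7-HC library 1, which is in neither group but sets part of the shared spread, gave Ebp an adjusted p of 0.0429. Sc5d, the sterol desaturase that precedes Dhcr7, had 68.8, 53.6 and 58.8 FPKM with colistin and 61.5, 36.95 and 47.6 FPKM in control (log2 fold change 0.33, 95% interval -0.29 to 0.95). Of the 19 synthesis genes, only Tm7sf2 and Ebp had a fitted value below 0 in this comparison, and neither passed.

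**Figure D2:**
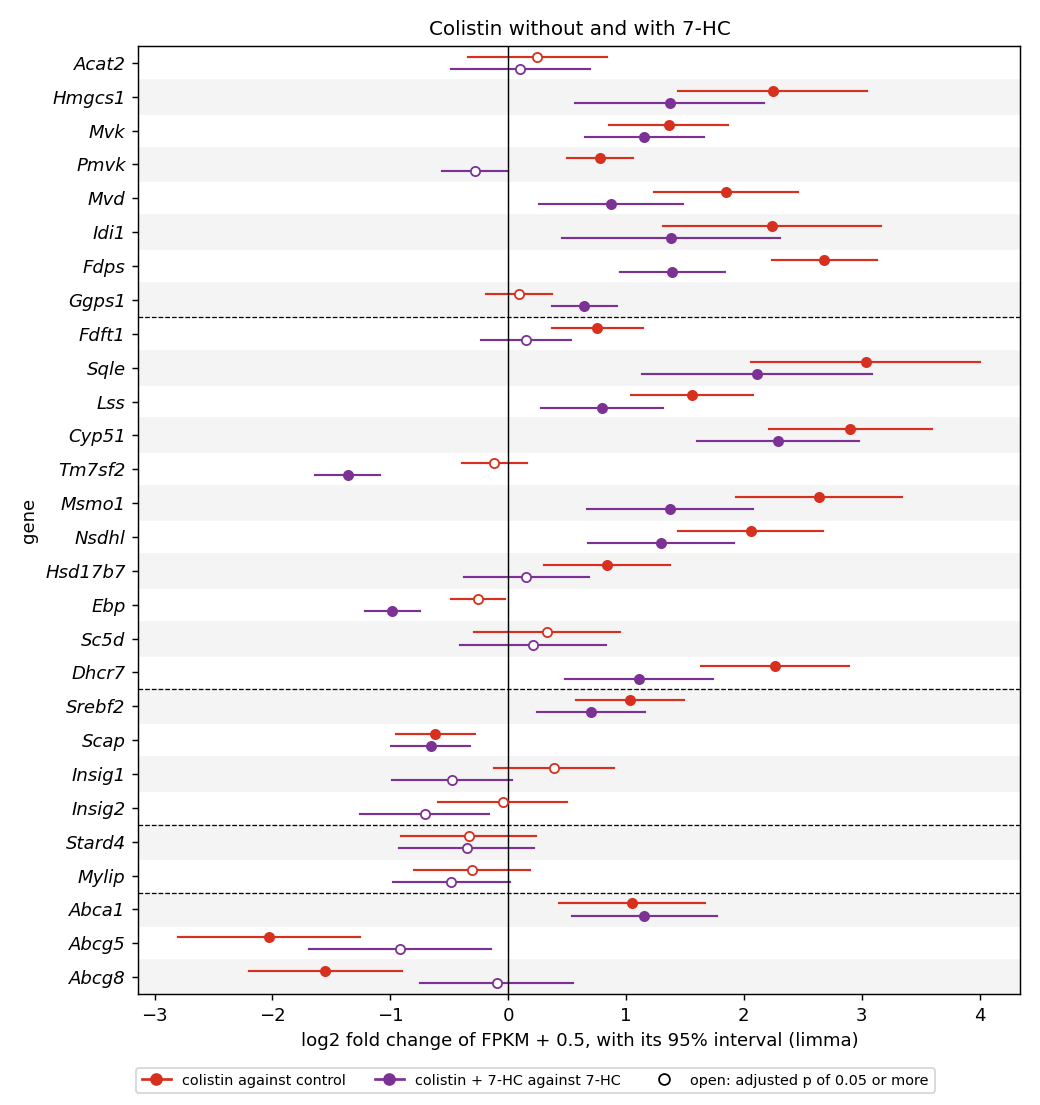
Log2 fold change with its 95% interval for each of the 28 members, from log2(FPKM + 0.5), with 1 series of points for the effect of colistin without 7-HC and another for its effect with 7-HC, ordered by role. Sqle, Cyp51 and Fdps stand farthest to the right without 7-HC (3.03, 2.90 and 2.68), and Abcg5 farthest to the left (-2.03).

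The sensing genes did not move as 1 group. Srebf2, which encodes the transcription factor of the pathway and is itself among its targets, had 17.8, 13.7 and 13.6 FPKM in the colistin libraries, against 7.46, 5.75 and 8.09 FPKM in the control libraries (log2 fold change 1.03 ± 0.21, adjusted p = 0.00332). Scap, its escort and sterol sensor, had 17.4, 24.3 and 19.6 FPKM with colistin and 32.9, 27.6 and 34.1 FPKM in control (log2 fold change -0.62 ± 0.15, adjusted p = 0.0095). The factor was thus higher and its escort lower, each with no overlap between the groups. Exons of Scap share 13.2% of their bases with a gene on the opposite strand, and the strand of the libraries is not given in the sources used here. Insig1, an anchor that is also a target of the factor, had 71.9, 58.1 and 54.9 FPKM with colistin and 61.2, 40.5 and 40.9 FPKM in control (log2 fold change 0.39 ± 0.23, adjusted p = 0.222). Insig2, the anchor that is not a classical target of it, had 68.1, 34.4 and 52.01 FPKM with colistin and 50.05, 63.5 and 42.3 FPKM in control (log2 fold change -0.05 ± 0.25, adjusted p = 0.91). Insig1 overlapped between the groups, and the fitted difference of Insig2 changed sign when single libraries were left out.

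Neither transport gene passed the test. Stard4, a soluble sterol carrier, had 12.8, 12.6 and 9.98 FPKM with colistin and 19.4, 14.8 and 11.5 FPKM in control (log2 fold change -0.34, 95% interval -0.91 to 0.23). Mylip, an E3 ligase that marks lipoprotein receptors for degradation and is induced by liver X receptors, had 3.96, 5.25 and 4.03 FPKM with colistin and 4.09, 6.19 and 6.68 FPKM in control (log2 fold change -0.31, 95% interval -0.80 to 0.19). The intervals of both genes leave out a rise of the size of that of Srebf2.

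All 3 export genes passed, in opposite directions. Abca1, which loads cholesterol onto apolipoprotein particles, had 37.9, 14.98 and 31.4 FPKM with colistin and 12.5, 12.7 and 11.9 FPKM in control (log2 fold change 1.05 ± 0.28, adjusted p = 0.0149). The control libraries lay within 1 FPKM of each other and colistin library 2 stood nearest to them. The call of Abca1 was lost without colistin library 1 (log2 fold change 0.79, adjusted p = 0.0625), without colistin library 3 (0.92, 0.0564) or with only the 2 groups in the fit (1.05, 0.0535). Abcg5, a subunit of the transporter that secretes sterols into bile, had 8.59, 28.2 and 19.7 FPKM with colistin and 80.5, 67.01 and 64.9 FPKM in control (log2 fold change -2.03 ± 0.35, adjusted p = 0.00131). Abcg8, its partner, had 8.31, 24.8 and 14.9 FPKM with colistin and 44.97, 49.3 and 37.6 FPKM in control (log2 fold change -1.55 ± 0.30, adjusted p = 0.0024). The order of the colistin libraries was the same for both subunits, with library 1 lowest and library 2 highest, and no colistin library reached the control range.

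**Figure D3:**
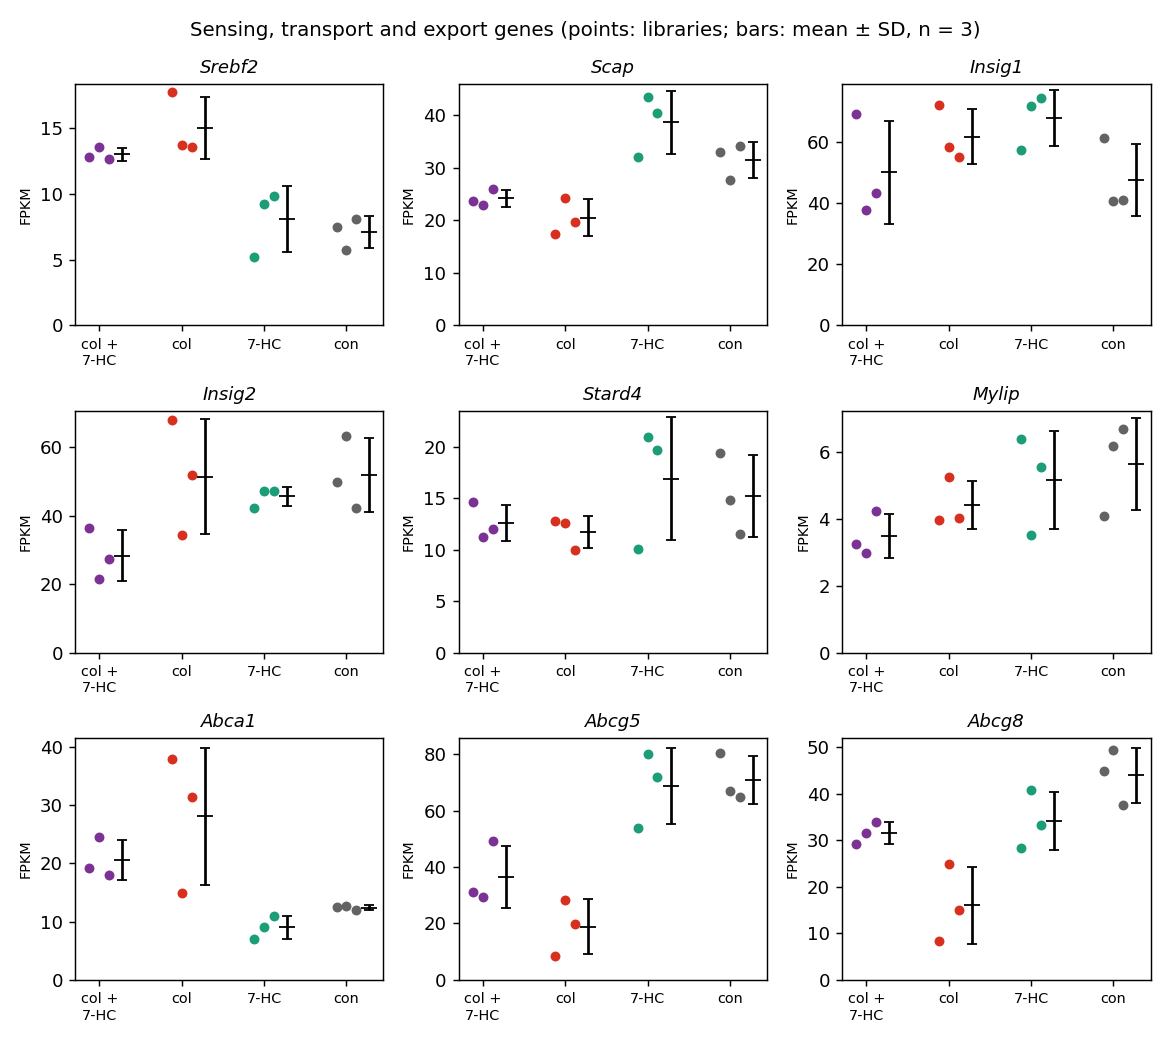
FPKM of the 9 sensing, transport and export genes in each library, with points for single libraries and a bar at the group mean. Abcg5 lies at 8.59 to 28.2 FPKM in the colistin libraries and at 64.9 to 80.5 FPKM in the control libraries, and Srebf2 at 13.6 to 17.8 and 5.75 to 8.09 FPKM in the same groups.

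Summed in each library, liver and neutrophil markers lay apart between the colistin and control groups, whereas macrophage and endothelial markers overlapped. Of the 10 liver markers, 8 were lower and 1, Fgb, was higher in the colistin group, with no gene of the list at 0. Of 5 tested neutrophil markers (of 6), 3 were higher, and the list summed to 28.64 to 50.18 FPKM in the colistin libraries, against 7.17 to 9.27 FPKM in the control libraries, with Mpo never above 0.11 FPKM. S100a8, S100a9 and Retnlg averaged 13.7, 18.6 and 4.37 FPKM with colistin and 0.35, 0.957 and 0.22 FPKM in control. In the same groups Ly6g averaged 4.24 and 5.04 FPKM, and Cxcr2 1.51 and 1.32 FPKM. Of 6 macrophage markers, 1 was higher and 1 lower, with sums of 75.11 to 177.5 FPKM with colistin and 91.65 to 139.8 FPKM in control. Of 4 endothelial markers, 1 was higher, with sums of 23.27 to 35.02 FPKM with colistin and 23.98 to 30.3 FPKM in control. The part of these shifts in the members' differences was not tested. In such bulk samples, fewer cells of a type and less RNA per cell cannot be told apart.

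Single colistin mice differed in how far the genes had moved. Colistin library 1 was highest of its group for 18 of the 19 synthesis genes, and those genes summed to 1679 FPKM in it, against 1291 and 1253 FPKM in colistin libraries 2 and 3. Over all tested genes colistin library 1 was highest for 33.5%. Library 1 was also the highest for 17 of the 19 in the colistin + 7-HC group (28.4% of all genes) and for 16 of the 19 in the control group (23.3%), whereas in the 7-HC group it was the lowest for 16 (40.6%). Of the 19 members called in this comparison, colistin library 2 was the colistin library nearest to the control mean for 12 and colistin library 3 for 7.

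Other genes that handle sterols or mevalonate products moved in both directions. Of 34 listed, 33 were tested, of which 8 were higher and 6 lower with colistin and the median log2 fold change was 0.03. Over all genes tested, 12.7% were higher and 19.9% lower. Of those that branch from farnesyl diphosphate to dolichol and prenylated proteins, Dhdds (log2 fold change 0.98) and Nus1 (0.61), the subunits of the dolichol synthase, and Fnta (0.48) and Fntb (0.73), the subunits of farnesyltransferase, were higher. Pggt1b, a subunit of an enzyme that attaches geranylgeranyl groups to proteins, was not called (log2 fold change 0.03, limma adjusted p = 0.912). Pdss1 (-0.51) and Pdss2 (-0.43), which make the tail of coenzyme Q, were lower. The sterol-binding proteins Tmem97 (0.98), Osbp (0.82) and Erlin1 (0.38) and the receptor Lrp1 (0.65) were higher. Rnf145, a ligase that responds to sterols, was lower (-1.54, limma adjusted p = 3.12e-05), as were Stard3 (-0.45) and Lpcat3 (-0.81). Srebf1, the paralog of Srebf2 that drives fatty acid synthesis, was lower (-1.32, adjusted p = 0.0385), opposite in sign to Srebf2.

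Colistin + 7-HC against colistin asks what 7-HC changed in mice that received the antibiotic. No member passed the test in limma, against 0.00929% of all genes, which was 1 gene of 10764. At an unadjusted p under 0.05, 7 members differed, 2 upward and 5 downward, against 1337 of all genes. Of the 28, 23 had a log2 fold change below 0 and the median was -0.28, whereas 4942 of all 10764 genes were below 0 and the median was 0.02. The colistin + 7-HC libraries lay wholly below the colistin libraries for 8 members (6.99% of all genes did) and wholly above them for 2 members, Abcg5 and Abcg8 (9.91% of all genes did). The 8 were Pmvk, Fdps, Fdft1, Sqle, Msmo1, Ebp, Dhcr7 and Srebf2.

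Among the synthesis genes, Dhcr7 had 63.4, 41.1 and 42.6 FPKM in the colistin + 7-HC libraries, against 100.02, 67.02 and 68.2 FPKM in the colistin libraries (log2 fold change -0.67 ± 0.29, adjusted p = 0.372). Msmo1 had 186, 127 and 179 FPKM with both compounds and 273, 242 and 197 FPKM with colistin (log2 fold change -0.54 ± 0.32, adjusted p = 0.524). Sqle had 44.8, 34.01 and 44.99 FPKM with both compounds and 71.3, 47.5 and 48.8 FPKM with colistin (log2 fold change -0.42 ± 0.44, adjusted p = 0.74). None of the 3 was called after adjustment over all tested genes, although the 95% interval of Dhcr7 ran from -1.30 to -0.05. Hmgcs1 averaged 101 ± 37.5 FPKM with both compounds and 154 ± 62.3 FPKM with colistin (SD, n = 3 each), and the groups overlapped. For Cyp51 the 95% interval of the log2 fold change ran from -0.85 to 0.53 and for Fdps from -0.70 to 0.20, so a fall of Fdps as large as its colistin rise lies outside its interval.

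Abcg8, Insig2 and Abcg5 sat nearest to a call. Abcg8 had 29.1, 31.7 and 33.96 FPKM with both compounds and 8.31, 24.8 and 14.9 FPKM with colistin (log2 fold change 1.09 ± 0.30, adjusted p = 0.209). Abcg5 had 31.2, 29.3 and 49.2 FPKM with both compounds and 8.59, 28.2 and 19.7 FPKM with colistin (log2 fold change 1.05 ± 0.35, adjusted p = 0.286). Insig2 had 36.4, 21.5 and 27.3 FPKM with both compounds and 68.1, 34.4 and 52.01 FPKM with colistin (log2 fold change -0.83 ± 0.25, adjusted p = 0.248). In all 3 genes colistin library 2 was the colistin library closest to the colistin + 7-HC libraries. Without colistin library 2, 4 members passed, namely Abcg8 (log2 fold change 1.46, adjusted p = 0.0144), Insig2 (-1.09, 0.027), Abcg5 (1.41, 0.0382) and Abca1 (-0.75, 0.0488), and 470 of all genes did. Abca1 itself had 19.3, 24.5 and 17.9 FPKM with both compounds and 37.9, 14.98 and 31.4 FPKM with colistin, and its groups overlapped. The neutrophil markers summed to 19.24 to 33.56 FPKM with both compounds and to 28.64 to 50.18 FPKM with colistin, and their part was not tested. Of that list, Ly6g averaged 4.34 FPKM with both compounds and 4.24 FPKM with colistin, and Cxcr2 1.16 and 1.51 FPKM.

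**Figure D4:**
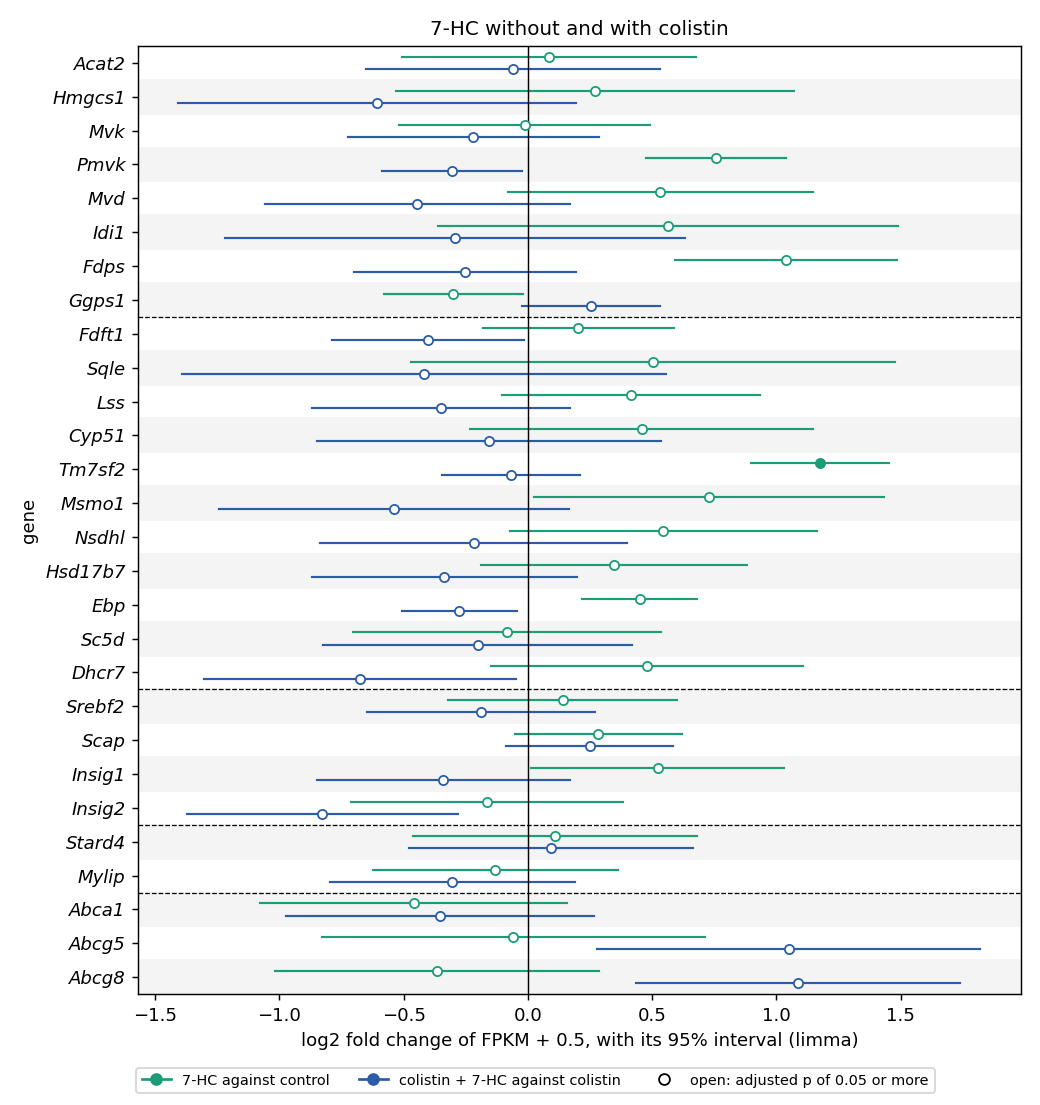
Log2 fold change with its 95% interval for each of the 28 members, from log2(FPKM + 0.5), for colistin + 7-HC against colistin and for 7-HC against control. Tm7sf2 for 7-HC against control, at 1.18, is the only filled point, which marks an adjusted p under 0.05, and 23 of 28 points lie left of 0 for colistin + 7-HC against colistin.

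7-HC against control asks what 7-HC and its vehicle did without the antibiotic. Of the 28 members, 1 was called, against 0.167% of all genes. Tm7sf2 had 157, 127 and 127 FPKM in the 7-HC libraries, against 63.03, 59.2 and 58.4 FPKM in the control libraries (log2 fold change 1.18 ± 0.13, adjusted p = 0.00419). Every 7-HC library stood above every control library, and among the fits judged at an adjusted p under 0.05 the call was lost only with the 2 groups alone in the fit (adjusted p = 0.0572). Exons of Tm7sf2 share 12.1% of their bases with Vps51 on the same strand, and Vps51 had 4.87, 5.56 and 5.36 FPKM with 7-HC and 5.01, 5.03 and 6.14 FPKM in control. Vps51 was at a far lower level than Tm7sf2 (log2 fold change -0.03, limma adjusted p = 0.969), and the part of shared reads in the Tm7sf2 values was not tested. Tm7sf2 lies on chromosome 19 from 6062821 to 6067850 of GRCm38.p6.

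Pmvk, Fdps and Ebp also had no overlap between the 7-HC and control libraries, which for a higher 7-HC group held for 4 members with Tm7sf2 (5.82% of all genes). Pmvk had 36.8, 37.1 and 31.2 FPKM with 7-HC and 22.9, 18.1 and 20.7 FPKM in control (log2 fold change 0.76 ± 0.13, adjusted p = 0.0506). Fdps had 86.2, 118 and 98.02 FPKM with 7-HC and 60.9, 53.2 and 34.98 FPKM in control (log2 fold change 1.04 ± 0.20, adjusted p = 0.116). Ebp had 132, 115 and 111 FPKM with 7-HC and 93.1, 80.3 and 87.9 FPKM in control (log2 fold change 0.45 ± 0.11, adjusted p = 0.18). None of the 3 passed the adjusted threshold, with Pmvk just short of it. In the other direction, the 7-HC libraries lay wholly below control for 1 member and for 1084 of all 10764 genes. That member, Abca1, had 7.00, 9.07 and 10.9 FPKM with 7-HC and 12.5, 12.7 and 11.9 FPKM in control. Over the 28 members 20 had a positive log2 fold change and the median was 0.32, against 4575 of 10764 positive and a median of -0.04 over all genes. 7-HC library 1 was lowest of its group for 16 of the 19 synthesis genes, with a sum of 627.6 FPKM, against 769.6 and 771.5 FPKM in 7-HC libraries 2 and 3. At an unadjusted p under 0.05, 7 members differed, 6 upward and 1, Ggps1, downward. Of all 10764 genes, 1032 did, 328 upward and 704 downward.

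Colistin + 7-HC against control asks whether mice given both compounds still differed from mice given saline. Of the 28 members 13 were higher and 2 lower, against 10.6% higher and 15.6% lower among all genes. Higher were Hmgcs1, Mvk, Pmvk, Mvd, Idi1, Fdps, Sqle, Lss, Cyp51, Msmo1, Nsdhl, Dhcr7 and Srebf2, and lower were Ebp and Insig2. Cyp51 had 109, 73.9 and 80.9 FPKM with both compounds and 18.2, 14.6 and 7.29 FPKM in control (log2 fold change 2.75 ± 0.32, adjusted p = 0.000147). Fdps had 280.2, 233 and 278 FPKM with both compounds and 60.9, 53.2 and 34.98 FPKM in control (log2 fold change 2.43 ± 0.20, adjusted p = 1.78e-05). Sqle averaged 41.3 ± 6.29 FPKM with both compounds and 6.82 ± 3.32 FPKM in control (SD, n = 3 each). These 3 genes had the largest fold changes of the 28 in this comparison. This comparison shares its control libraries with colistin against control, so the calls of the 2 comparisons are not independent. The neutrophil markers summed to 19.24 to 33.56 FPKM with both compounds and to 7.17 to 9.27 FPKM in control, and their part was not tested. Of that list, Ly6g averaged 4.34 FPKM with both compounds and 5.04 FPKM in control, and Cxcr2 1.16 and 1.32 FPKM.

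Ebp had 60.04, 59.2 and 60.8 FPKM with both compounds, which lay within 2 FPKM of each other, against 93.1, 80.3 and 87.9 FPKM in control (log2 fold change -0.53 ± 0.11, adjusted p = 0.00404). Insig2 had 36.4, 21.5 and 27.3 FPKM with both compounds and 50.05, 63.5 and 42.3 FPKM in control (log2 fold change -0.87 ± 0.25, adjusted p = 0.0247). The call of Insig2 was lost without control library 1 (adjusted p = 0.0602), control library 2 (0.0941), colistin + 7-HC library 2 (0.101) or colistin + 7-HC library 3 (0.0626). Pmvk had 31.4, 30.6 and 24.6 FPKM with both compounds and 22.9, 18.1 and 20.7 FPKM in control, and its call was lost without control library 2 (0.0802) or without colistin + 7-HC library 1 (0.0721) or 2 (0.0737). Srebf2 had 12.8, 13.6 and 12.7 FPKM with both compounds and 7.46, 5.75 and 8.09 FPKM in control, and its call was lost without control library 2 (0.0548). Every library with both compounds lay above every control library for Pmvk and for Srebf2, as it did for 2108 of all 10764 genes.

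Other members missed the threshold here and passed it under some alternatives. Scap had 23.8, 22.9 and 25.98 FPKM with both compounds and 32.9, 27.6 and 34.1 FPKM in control (log2 fold change -0.37 ± 0.15, adjusted p = 0.0965). It missed the threshold and its groups did not overlap, as for the 3096 of all 10764 genes that lay wholly lower. Scap passed when only the 2 groups were fitted (0.0403). Abcg5 (log2 fold change -0.98 ± 0.35, adjusted p = 0.0612) missed the threshold in the same way and passed when only the 2 groups were fitted (0.0115), without colistin library 1 (0.00941) or 2 (0.0269), or without colistin + 7-HC library 3 (0.047). Abca1 (log2 fold change 0.70 ± 0.28, adjusted p = 0.0918) passed without colistin library 2 (0.01) or with only the 2 groups (0.00692), and Abcg8 (log2 fold change -0.47 ± 0.30, adjusted p = 0.275) with only the 2 groups (0.0277). Ggps1 (log2 fold change 0.35 ± 0.13, adjusted p = 0.0652) passed without colistin library 2 (0.049) or after scaling the libraries by median ratios (0.023), and Mylip (log2 fold change -0.61 ± 0.23, adjusted p = 0.0666) without control library 1 (0.033) or 7-HC library 2 (0.0391).

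Colistin + 7-HC against 7-HC gives the colistin effect in mice that also received 7-HC. Its fold changes use no library of the colistin against control comparison. Those libraries do set part of the shared spread of the fit, so the calls of these comparisons are not independent. Of the 28 members 14 were higher and 3 lower, against 14.5% higher and 16.6% lower among all genes. Of the 16 genes higher in colistin against control, 13 were also higher here, which is 13 of the 14 called here. The other 3 of the 16 were Pmvk, Fdft1 and Hsd17b7, and the remaining gene of the 14 was Ggps1. Scap was lower in both comparisons. Abcg5 and Abcg8 were called lower without 7-HC and missed the threshold with it, and Tm7sf2 and Ebp were called lower with 7-HC and missed it without. The difference itself is tested by the interaction. No member was called in opposite directions. The overlap of calls over all genes was not counted, so none can be set beside that of the members. The neutrophil markers summed to 19.24 to 33.56 FPKM with both compounds and to 7.22 to 9.32 FPKM with 7-HC, and their part was not tested. Of that list, Ly6g averaged 4.34 FPKM with both compounds and 4.60 FPKM with 7-HC, and Cxcr2 1.16 and 1.82 FPKM.

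Cyp51 had 109, 73.9 and 80.9 FPKM with both compounds and 11.3, 20.2 and 22.7 FPKM with 7-HC (log2 fold change 2.29 ± 0.32, adjusted p = 0.00036). Sqle had 44.8, 34.01 and 44.99 FPKM with both compounds and 3.92, 13.3 and 13.99 FPKM with 7-HC (log2 fold change 2.11 ± 0.44, adjusted p = 0.00449). Fdps had 280.2, 233 and 278 FPKM with both compounds and 86.2, 118 and 98.02 FPKM with 7-HC (log2 fold change 1.39 ± 0.20, adjusted p = 0.00054). For Fdps the log2 fold change without 7-HC was 2.68, and the difference between the 2 was not called (limma adjusted p = 0.104). Msmo1 had 186, 127 and 179 FPKM with both compounds and 36.9, 76.1 and 85.5 FPKM with 7-HC (log2 fold change 1.37 ± 0.32, adjusted p = 0.00798). Nsdhl had 96.01, 65.5 and 67.99 FPKM with both compounds and 20.8, 36.9 and 36.5 FPKM with 7-HC (log2 fold change 1.30 ± 0.28, adjusted p = 0.00544). Mvk had 15.6, 14.1 and 14.5 FPKM with both compounds and 4.09, 8.64 and 7.13 FPKM with 7-HC (log2 fold change 1.15 ± 0.23, adjusted p = 0.00344). In each of these 6 genes the lowest library with both compounds lay above the highest with 7-HC, as it did for 2380 of all 10764 genes.

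Ggps1 had 3.62, 3.52 and 3.33 FPKM with both compounds and 1.90, 1.96 and 2.30 FPKM with 7-HC (log2 fold change 0.65 ± 0.13, adjusted p = 0.00313). Abca1 had 19.3, 24.5 and 17.9 FPKM with both compounds and 7.00, 9.07 and 10.9 FPKM with 7-HC (log2 fold change 1.16 ± 0.28, adjusted p = 0.00989). Both kept their call without any single library. Hmgcs1 had 142, 68.5 and 91.4 FPKM with both compounds and 22.8, 39.7 and 55.2 FPKM with 7-HC (log2 fold change 1.37 ± 0.37, adjusted p = 0.0151), and Dhcr7 had 63.4, 41.1 and 42.6 FPKM with both compounds and 13.2, 27.6 and 28.9 FPKM with 7-HC (log2 fold change 1.11 ± 0.29, adjusted p = 0.0128). Both lost their call without colistin + 7-HC library 1 (adjusted p = 0.0626 for Hmgcs1 and 0.0536 for Dhcr7), and Hmgcs1 also without 7-HC library 1 (0.056).

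Mvd had 11.1, 8.54 and 11.1 FPKM with both compounds and 3.75, 6.68 and 6.03 FPKM with 7-HC (log2 fold change 0.87 ± 0.28, adjusted p = 0.0348), and Idi1 had 16.3, 8.01 and 6.51 FPKM with both compounds and 2.80, 2.80 and 4.74 FPKM with 7-HC (log2 fold change 1.38 ± 0.42, adjusted p = 0.0286). Lss had 10.6, 8.03 and 9.58 FPKM with both compounds and 3.61, 5.87 and 6.41 FPKM with 7-HC (log2 fold change 0.80 ± 0.24, adjusted p = 0.0247). Srebf2 had 12.8, 13.6 and 12.7 FPKM with both compounds and 5.22, 9.20 and 9.80 FPKM with 7-HC (log2 fold change 0.70 ± 0.21, adjusted p = 0.0253). Each of these 4 calls was lost without certain single libraries. In all 4 genes the groups did not overlap, as for the 2380 of all 10764 genes that lay wholly higher. Without 7-HC library 1 the log2 fold change was 0.64 for Mvd (adjusted p = 0.123), 1.27 for Idi1 (0.0818), 0.57 for Lss (0.0864) and 0.43 for Srebf2 (0.061). Without colistin + 7-HC library 1 it was 0.81 for Mvd (0.0974), 1.004 for Idi1 (0.11), 0.71 for Lss (0.0827) and 0.71 for Srebf2 (0.0597). Leaving out library 1 of either group thus lost all 4 calls, with 7-HC library 1 the lowest of its group for Mvd, Lss and Srebf2. For Srebf2 the fold change without colistin + 7-HC library 1 was no smaller than with all libraries (0.71 against 0.70). Single calls were also lost without 7-HC library 2 (Idi1, 1.27, 0.0833), 7-HC library 3 (Mvd, 0.95, 0.0547), colistin + 7-HC library 2 (Idi1, 1.497, 0.0506, and Srebf2, 0.67, 0.0745) and colistin + 7-HC library 3 (Mvd, 0.81, 0.0942, Lss, 0.78, 0.0635, and Srebf2, 0.72, 0.0546), and those of Mvd (0.0618) and Idi1 (0.054) also with no filter on low values.

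Of the genes that were lower, Tm7sf2 had 57.2, 48.6 and 53.04 FPKM with both compounds and 157, 127 and 127 FPKM with 7-HC (log2 fold change -1.36 ± 0.13, adjusted p = 2.93e-05). Ebp had 60.04, 59.2 and 60.8 FPKM with both compounds and 132, 115 and 111 FPKM with 7-HC (log2 fold change -0.98 ± 0.11, adjusted p = 8.04e-05). Scap had 23.8, 22.9 and 25.98 FPKM with both compounds and 31.98, 43.5 and 40.5 FPKM with 7-HC (log2 fold change -0.65 ± 0.15, adjusted p = 0.00794). All 3 kept their call without any single library. Abcg8, lower with colistin in the absence of 7-HC, had 29.1, 31.7 and 33.96 FPKM with both compounds and 28.3, 40.9 and 33.3 FPKM with 7-HC (log2 fold change -0.10, 95% interval -0.75 to 0.55). Abcg5 had 31.2, 29.3 and 49.2 FPKM with both compounds and 53.8, 80.2 and 71.8 FPKM with 7-HC (log2 fold change -0.92 ± 0.35, adjusted p = 0.0677), and passed without colistin library 1 (0.0106) or 2 (0.0307), without colistin + 7-HC library 3 (0.0491) or with only the 2 groups fitted (0.0194).

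The remaining sensing and transport genes had negative fitted values in this comparison, and none passed with all libraries. Insig2 had 36.4, 21.5 and 27.3 FPKM with both compounds and 42.4, 47.4 and 47.3 FPKM with 7-HC (log2 fold change -0.71 ± 0.25, adjusted p = 0.0503), and passed without colistin library 1 (0.0306) or 2 (0.0201), without colistin + 7-HC library 1 (0.0318), with only the 2 groups fitted (0.025) or with a filter of 1 FPKM in every library (0.0461). Insig1 had 69.1, 37.7 and 43.2 FPKM with both compounds and 57.3, 71.6 and 74.1 FPKM with 7-HC (log2 fold change -0.47 ± 0.23, adjusted p = 0.144), and passed without colistin + 7-HC library 1 (0.029). Both anchors of the sensing complex thus missed the threshold with all libraries and passed it without colistin + 7-HC library 1. Stard4 had 14.6, 11.2 and 11.99 FPKM with both compounds and 10.1, 21.00 and 19.7 FPKM with 7-HC (log2 fold change -0.35 ± 0.26, adjusted p = 0.331), and passed without 7-HC library 1 (0.0318). Mylip had 3.24, 2.99 and 4.23 FPKM with both compounds and 6.39, 3.53 and 5.55 FPKM with 7-HC (log2 fold change -0.48 ± 0.23, adjusted p = 0.127), and passed without 7-HC library 2 (0.0339). Apart from Insig2, whose groups did not overlap, each of these genes had overlapping groups.

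**Figure D5:**
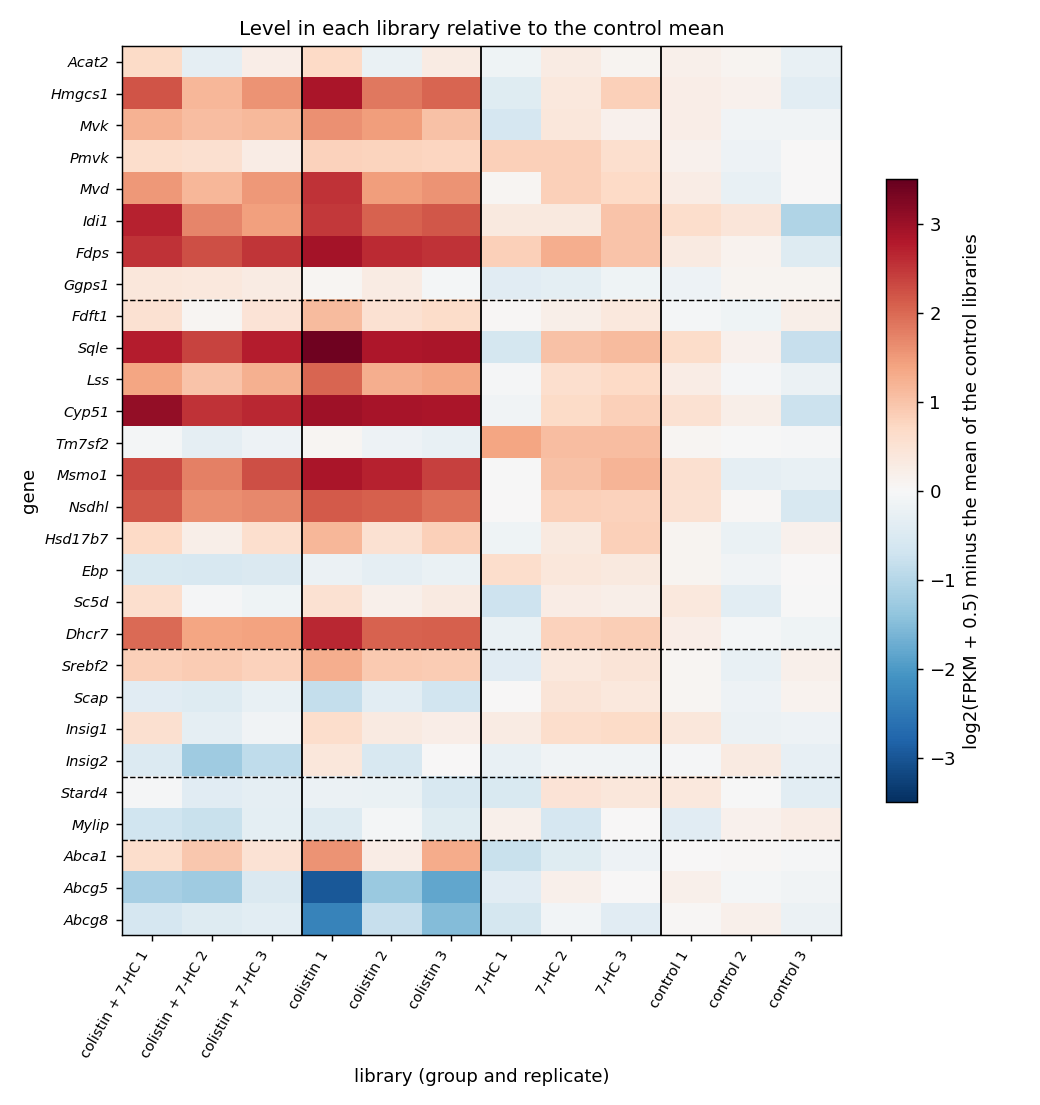
Log2(FPKM + 0.5) of each of the 28 members in each of the 12 libraries minus the mean of the 3 control libraries, with genes in rows by role and libraries in columns by group. Colistin library 1 is the highest of its group in 18 of the 19 synthesis rows, and the Tm7sf2 row is high in the 7-HC columns alone.

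The interaction term compares the colistin effect in mice with 7-HC with that in mice without it. Of the 28 members 2 were called, against 0.297% of all genes, and both were negative. Tm7sf2 (difference of log2 fold changes -1.24 ± 0.18, SE, limma adjusted p = 0.0309) averaged 52.97 ± 4.31 FPKM with both compounds, 55.7 ± 6.49 with colistin, 137 ± 17.5 with 7-HC and 60.2 ± 2.49 in control (SD, n = 3 each). Its level was thus high with 7-HC alone and near control wherever colistin was given. Pmvk (difference -1.06 ± 0.18, adjusted p = 0.0429) averaged 28.9 ± 3.73 FPKM with both compounds, 35.6 ± 0.467 with colistin, 35.03 ± 3.35 with 7-HC and 20.6 ± 2.42 in control. Either compound alone went with a level of about 35 FPKM, and both together did not go beyond it. The call of Pmvk was lost without any 1 library other than colistin library 2, at adjusted p-values from 0.0524 to 0.129. The call of Tm7sf2 was lost without any 1 library other than colistin library 2 or control library 3, at 0.0509 to 0.0949. Pmvk also missed the threshold with no filter on low values (0.0761), with a pseudocount of 0.1 (0.0532), after scaling by median ratios (0.0506) and with replicate number as a block (0.0837), and Tm7sf2 with that block (0.0644). Without colistin library 2, Abcg8 (difference 1.82, adjusted p = 0.0263) and Ebp (-0.75, 0.0499) passed as well. Of the 28 differences 24 were negative, with a median of -0.67, against 4526 of 10764 and a median of 0.06 over all genes. For the other 17 synthesis genes the difference was not called, so a smaller colistin effect with 7-HC was not shown for any of them.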

How the data were processed

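Gene expression was measured by RNA sequencing on the BGISEQ-500 platform in 12 libraries, 3 per group. Per the labels and the methods, SOAPnuke was the read filter of the authors, the genome GRCm38.p6 was aligned to with HISAT2 2.0.4, a set of coding genes with Bowtie2 2.2.5, and RSEM 1.2.12 gave the level of each gene. The authors made their comparisons with DESeq2 1.4.5. The deposited values name no unit. They are not whole and sum unequally, so they were taken as FPKM made by the authors, without further scaling. Counts, depth and strand are not given in the sources used here, so no counting interval was computed. Of 22899 genes listed, 17738 had values and 5161 were blank in all libraries.

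The 10764 genes that reached 1 FPKM in 3 or more libraries were tested. Their values, on the log2 scale after adding 0.5, were fitted in limma 3.58.1 (R 4.3.3) using its trended prior, 1 term for each group and all 12 libraries together. Two-sided p-values received the Benjamini-Hochberg adjustment across all tested genes of a comparison, and a gene was called at an adjusted p under 0.05. An exact permutation test of 3 libraries against 3 cannot give a p below 0.1. The fit was tested on simulated data. The members, the lists and the tests were chosen with earlier results of these data known. Every member is named. Values per library are given for members called with an absolute log2 fold change of 1 or more, for sensing, transport and export genes, and for members called in any comparison. Same-numbered libraries did not vary together (2 of 18 pairs had a residual correlation over 0.1), so no pairing was used. The alternatives were other filters, pseudocounts of 0.1 and 1, scaling by median ratios, a fit of only the groups compared, a replicate block, the thresholds of the paper (a fold change of 2 or more and an adjusted p of 0.001 or less) and leaving out each library. Promoters are those of RefSeq, and exon overlaps were taken from GENCODE on the same build. Gramd1b did not reach the filter. Certain genes of the pathway and marker lists are not reported here. Python 3.11.15 with matplotlib 3.10.9 made the plots.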

Additional observations from a re-analysis of the deposited data

Results flagged for a closer look

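For 2 members the colistin effect differed between mice with and without 7-HC by a test of the difference itself. The difference of log2 fold changes, with 7-HC minus without, was -1.06 for Pmvk (limma adjusted p = 0.0429) and -1.24 for Tm7sf2 (limma adjusted p = 0.0309). Both calls depended on most single libraries. That of Pmvk was lost without any 1 library other than colistin library 2 (adjusted p from 0.0524 to 0.129). That of Tm7sf2 was lost without any 1 library other than colistin library 2 or control library 3 (0.0509 to 0.0949). With replicate number as a block, neither Pmvk (0.0837) nor Tm7sf2 (0.0644) passed. Pmvk also missed the threshold with no filter on low values (0.0761), a pseudocount of 0.1 (0.0532) and scaling by median ratios (0.0506).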

How the results depend on the processing

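Leaving out each library in turn gave, for colistin against control, 17 to 20 members and 2495 to 3841 genes (19 and 3515 with all libraries), for colistin + 7-HC against colistin 0 to 4 and 0 to 470 (0 and 1), 1 in each case and 4 to 62 for 7-HC against control (1 and 18), 12 to 18 and 1772 to 3088 for colistin + 7-HC against control (15 and 2812), 13 to 19 and 2358 to 3603 for colistin + 7-HC against 7-HC (17 and 3349), and 0 to 4 and 0 to 134 for the interaction (2 and 32). The highest numbers for colistin + 7-HC against colistin and for the interaction were those without colistin library 2, the 62 genes were those without control library 3, and the 1772 genes those without colistin + 7-HC library 2. At the thresholds of the paper, colistin against control gave 9 members and 633 genes, and the counts were 4 and 374 for colistin + 7-HC against control, 3 and 494 for colistin + 7-HC against 7-HC, and 0 and 0 for the other comparisons. For colistin + 7-HC against colistin, 3 genes were called with no filter on low values and 0 with 1 FPKM required in every library, with a pseudocount of 0.1 or with only the groups compared. For 7-HC against control, 11 genes were called with 1 FPKM in every library, and 0 members and 0 genes with only the groups compared. For the interaction, 1 member and 6 genes were called with no filter, 1 and 5 with a pseudocount of 0.1, and 1 member after scaling by median ratios, where the split of all genes was 10 positive and 14 negative against 17 and 15. That term needs all 4 groups, so it was not run with only the groups compared. The cause of these changes was not tested.

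With replicate number as a block, 19, 0, 1, 15, 17 and 0 members were called in the 6 comparisons in the order above, and 3197, 1, 8, 2503, 3018 and 0 genes. Numbers did not pair the samples, since only 2 of 12 libraries correlated best with their own number. Members whose fitted value changed sign under some setting numbered 2 for colistin against control, 3 for colistin + 7-HC against colistin, 8 for 7-HC against control, 3 for colistin + 7-HC against control, 4 for colistin + 7-HC against 7-HC and 7 for the interaction, none of them called before or after. For colistin against control these were Ggps1 without colistin library 2 (-0.0059, with 0.17 the highest value without 1 library) and Insig2 after scaling (0.037), without control library 2 (0.11) and without colistin library 2 (0.21, with -0.27 the lowest). For colistin + 7-HC against colistin they were Acat2 without colistin library 1 (0.16) or colistin + 7-HC library 2 (0.199, with -0.30 the lowest), Tm7sf2 without colistin library 1 (0.0229, with -0.13 the lowest), and Stard4 without colistin library 3 (-0.0159, with 0.17 the highest) or without colistin + 7-HC library 1, by less. With 1 FPKM required in every library Idi1 was not tested. Depth per library is unknown, so the precision of low values such as those of Idi1, Ggps1 and Mvd cannot be given beyond the spread between 3 mice.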

Other observations

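Of the 33 tested genes that share the pathway without being among the 28, Rnf145, Tmem97, Lrp1, Osbp and Fnta were called in both comparisons of mice given colistin and 7-HC, 4 of them upward and 1, Rnf145, downward. Rnf145 averaged 5.77 FPKM with both compounds, against 14.6 FPKM with 7-HC (log2 fold change -1.26, limma adjusted p = 0.000141) and 14.2 FPKM in control (-1.20, 0.000224). Tmem97 averaged 106 FPKM with both compounds, against 67.6 FPKM with 7-HC (0.65, 0.0013) and 51.4 FPKM in control (1.04, 8.3e-05). Both comparisons use the same colistin + 7-HC libraries. Soat2, which esterifies cholesterol in hepatocytes and enterocytes, was higher with both compounds than with 7-HC (0.72, adjusted p = 0.0184), and Acss2, which makes acetyl-CoA from acetate, was lower (-1.31, 0.00651). None of the 33 genes was called by limma for colistin + 7-HC against colistin, where 6 were at an unadjusted p under 0.05, for 7-HC against control, where 3 were, or for the interaction, where 2 were. Over all 10764 genes tested, 1337, 1032 and 1243 were at an unadjusted p under 0.05 in the same comparisons.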
